A study of Mus musculus with 2 samples.

Results

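The 7 genes described here, *Lyve1*, *Stab1*, *Cd163*, *Timd4*, *Folr2*, *F13a1* and *Ednrb*, are known markers of resident macrophages that lie beside vessels and in connective tissue. They were named as a set by symbol, with earlier results of these data known, and all 7 were found among the 54838 genes of the count tables. They were read in every cell of both libraries, 1045 YFP− and 4053 YFP+ cells, where a cell was a barcode with at least 500 UMIs and 200 genes. A UMI (unique molecular identifier) marks 1 captured RNA molecule, and levels are given as UMIs per 1000000 UMIs of the summed cells (CPM).

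Macrophages along vessels and in the coats of organs sample fluid and clear molecules and dying cells through scavenger receptors. *Lyve1* encodes a receptor for the matrix sugar hyaluronan that is also known from lymphatic endothelium. *Stab1* (stabilin-1) takes up modified lipoproteins and matrix proteins, *Cd163* takes up complexes of haemoglobin and haptoglobin, and *Timd4* (TIM-4) binds phosphatidylserine on dying cells. *Folr2* encodes folate receptor beta, *F13a1* the A subunit of coagulation factor XIII, a transglutaminase that crosslinks fibrin, and *Ednrb* the B-type receptor for endothelins. In nerve, such cells are known from the sheath and from the vessels that run along it.

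The macrophages came from the sciatic nerves of 19 male Flt3-Cre LSL-YFP fl/fl mice aged 10 to 12 weeks. CD64+ CD45int cells were sorted, pooled over the animals and divided by YFP, so that each condition was 1 library of untreated cells. In these mice YFP marks cells with a history of *Flt3* expression, a gene of blood progenitors, and the YFP− gate holds every cell in which the reporter was not switched on. With 1 library per condition no test of YFP+ against YFP− cells was possible, and every interval below is a 95% interval for counting error alone.

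The tables held 3653688 UMIs for the YFP− and 9365598 for the YFP+ library, of which 66.2% and 72.0% lay in cells. The median cell had 2233 and 1484 UMIs. All 10 macrophage markers checked were present, with summed levels of 19380 and 19440 CPM, and 7 cell barcodes occurred in both libraries. RNA of other cells was also present. The 8 Schwann cell markers summed to 749 and 690 CPM, the 8 mural cell markers to 15.7 and 162 CPM, and the 6 lymphatic endothelial markers to 2.90 and 1.78 CPM.

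The genes lie on 5 mouse chromosomes (build GRCm38). *Lyve1* spans chr7:110850607-110863239 and *Folr2* chr7:101839988-101857194, both on the minus strand. *Stab1* spans chr14:31139013-31168641 and *Ednrb* chr14:103814625-103844402, also on the minus strand. *F13a1* spans chr13:36867178-37050244 on the minus strand, *Cd163* chr6:124304656-124330527 and *Timd4* chr11:46810800-46844332 on the plus strand. No other annotated gene overlapped a member on its own strand, whereas *Stab1*, *Folr2* and *F13a1* each overlapped annotated genes of the opposite strand.

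The promoters of *Folr2*, *Ednrb* and *Stab1* are shown because the cells with *Folr2* and *Ednrb* overlapped most among the well-filled pairs, while *Stab1* followed another pattern. They run from 250 bases before to 50 bases after the start and were taken from RefSeq (GRCm38.p6), which had entries for 6 of the 7 genes and 8 starts. Capitals mark the letters TGCTGA, a half-site of MAF factors, GGAAGT, a core bound by ETS factors such as PU.1, and TGANTCA, the AP-1 site, on either strand. The windows are chr7:101857141-101857440, chr14:103843652-103843951 and chr14:31168592-31168891, each read along the minus strand.
Folr2: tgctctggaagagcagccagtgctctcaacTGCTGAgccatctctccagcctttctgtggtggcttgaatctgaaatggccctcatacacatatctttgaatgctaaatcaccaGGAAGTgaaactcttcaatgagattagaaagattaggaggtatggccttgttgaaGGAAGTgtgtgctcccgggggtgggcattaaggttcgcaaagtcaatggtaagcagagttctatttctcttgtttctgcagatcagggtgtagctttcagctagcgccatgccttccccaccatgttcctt
Ednrb: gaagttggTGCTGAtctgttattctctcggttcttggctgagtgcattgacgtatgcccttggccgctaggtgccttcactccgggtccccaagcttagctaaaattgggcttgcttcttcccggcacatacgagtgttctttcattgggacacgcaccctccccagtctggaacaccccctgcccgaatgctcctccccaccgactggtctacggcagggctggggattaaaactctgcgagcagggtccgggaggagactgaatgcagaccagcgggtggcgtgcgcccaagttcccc
Stab1: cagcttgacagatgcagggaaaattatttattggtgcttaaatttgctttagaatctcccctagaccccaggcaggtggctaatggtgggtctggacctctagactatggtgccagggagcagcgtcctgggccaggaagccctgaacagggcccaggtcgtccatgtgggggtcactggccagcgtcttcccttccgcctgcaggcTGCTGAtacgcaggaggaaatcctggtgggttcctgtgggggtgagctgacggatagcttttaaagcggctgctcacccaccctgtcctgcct

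TGCTGA was present in 5 of the 8 promoter windows, those of *Stab1*, *Timd4*, *Ednrb* and both starts of *Folr2*, and in 19.5% of the 32817 windows of the table. GGAAGT was present in 3 of the 8, 1 each of *Timd4*, *Folr2* and *F13a1*, and in 23.8% of all windows. TGANTCA was present in 1, at the second start of *Folr2*, and in 7.81% of all windows. The *Cd163* window held none of these letters. A match of letters describes the window and does not show binding.

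Among the scavenger receptors, *Cd163* was the most abundant, with 1079 CPM (1038 to 1122, 2610 UMIs) in YFP− and 1022 CPM (998 to 1046, 6895 UMIs) in YFP+ cells. *Stab1* reached 770.5 CPM (736 to 806) in YFP− and 556 CPM (538.5 to 574) in YFP+ cells. *Lyve1* reached 314 CPM (292 to 337.5) and 230.5 CPM (219 to 242). The order of these receptors was the same in both libraries, and their intervals did not overlap within a library.

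*Timd4* was the sparsest, with 66 UMIs or 27.3 CPM (21.1 to 34.7) in YFP− and 174 UMIs or 25.8 CPM (22.1 to 29.9) in YFP+ cells. No cell held more than 3 of its UMIs. The folate receptor gene *Folr2* was at 366 CPM (342 to 390.5) in YFP− and 286.5 CPM (274 to 299.5) in YFP+ cells.

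The transglutaminase gene *F13a1* stood at 1097 CPM (1055 to 1139) and 1018 CPM (994 to 1043). It did not differ from *Cd163* beyond the overlap of their intervals in either library. *Ednrb* was low, at 65.8 CPM (55.9 to 76.8) in YFP− and 40.8 CPM (36.1 to 45.9) in YFP+ cells.

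Free RNA was read in 56346 and 85373 barcodes with 10 to 100 UMIs. *Lyve1* and *F13a1* were higher in cells than in free RNA in both libraries. The level of *Lyve1* in cells was 1.29 times its level in free RNA in the YFP− and 1.33 times in the YFP+ library, and that of *F13a1* was 1.26 and 1.61 times. For *Stab1* this quotient was 0.644 and 0.790, for *Folr2* 0.684 and 0.715, and for *Cd163* 0.764 and 0.913. *Timd4* gave 0.637 and 1.07, and *Ednrb* 0.657 and 0.942. Averaged over all cells, the levels of *Stab1*, *Folr2* and *Cd163* therefore did not exceed that of the surrounding RNA, and these genes are described below by how their UMIs were spread over cells.

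**Figure D1:**
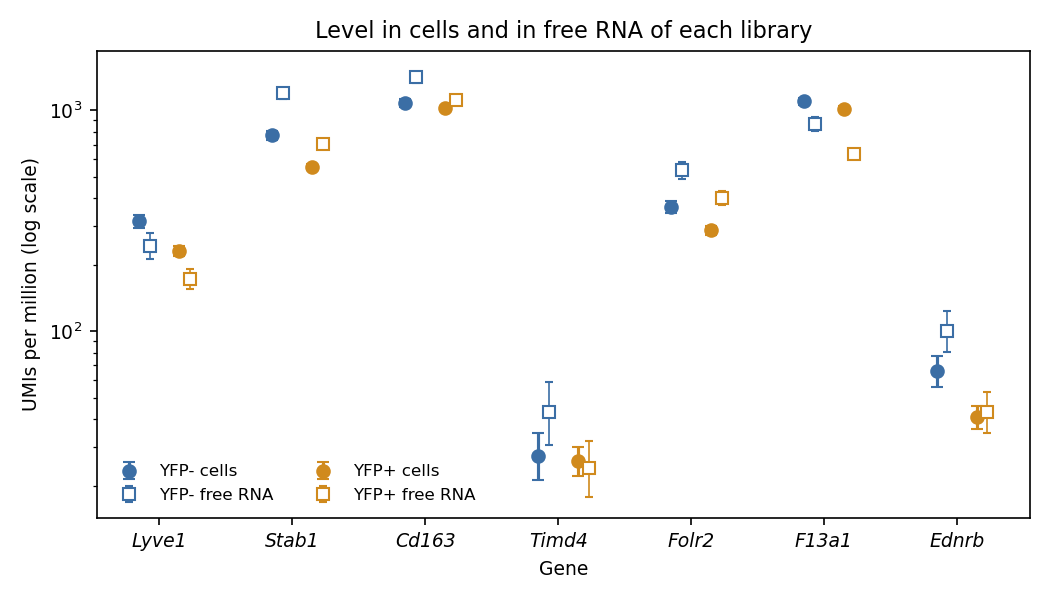
Level of each gene in CPM (log axis) in the cells (filled circles) and in the free RNA (open squares) of the YFP− (blue) and YFP+ (orange) library, with exact Poisson 95% intervals. *Lyve1* and *F13a1* lie above the free RNA of their own library, and *Stab1*, *Cd163* and *Folr2* below it in both.

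All 7 genes had a lower value in YFP+ than in YFP− cells, as had 46.6% of the 2632 genes with a mean of at least 50 CPM. *Ednrb* showed the largest difference, a log2 ratio of −0.68 (−0.96 to −0.39, the YFP+ over the YFP− level), or 1.61 times more CPM in YFP− cells. *Stab1* followed at −0.47 (−0.55 to −0.39), *Lyve1* at −0.45 (−0.57 to −0.32) and *Folr2* at −0.35 (−0.47 to −0.23). The ratios of *F13a1*, −0.11 (−0.17 to −0.04), and *Cd163*, −0.08 (−0.14 to −0.01), were small. That of *Timd4*, −0.08 (−0.48 to 0.34), could not be told from 0 at this depth. When cells were thinned to 500 UMIs, the value of *Lyve1* was −0.085 (−0.37 to 0.20), and the intervals of *Cd163* and *F13a1* also held 0. Thinning is a random draw that leaves fewer UMIs. With equal weight for every cell and no thinning, *Lyve1* was at −0.40 (−0.53 to −0.27).

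The interval lay below 0 for all 6 members with a mean of at least 50 CPM, against 16.4% of the genes at that level. An interval narrows with more UMIs, and these genes were not matched to the members for level. A ratio lower than that of *Ednrb* was found for 5.47% of the genes, and lower than that of *Stab1* for 6.38%. The values were 6.72% for *Lyve1*, 8.74% for *Folr2*, 26.7% for *F13a1* and 30.9% for *Cd163*. Of these 6, *Ednrb* alone was at least 1.5-fold lower in YFP+ cells, against 5.78% of the genes. The median log2 ratio was −0.35 over the members and 0.02 over the genes. These are differences between 2 libraries, each pooled over animals. The free RNA differed in the same direction, with *Stab1* at 1196 CPM in the YFP− and 704 in the YFP+ library, *Lyve1* at 244 and 173 and *Folr2* at 534 and 401. *Ednrb* had 91 of 909646 free UMIs in the YFP− and 88 of 2034293 in the YFP+ library, or 100 and 43.3 CPM. Free RNA of *F13a1* was at 870 and 634 CPM, that of *Cd163* at 1413 and 1119 and that of *Timd4* at 42.9 and 24.1. For every member the free RNA differed more between the libraries than the cells did. The part of free RNA in the differences was not tested beyond the removal of 10% of free RNA, after which the interval of *Cd163* held 0 (−0.11 to 0.03) and those of the other 5 lay below it. In cells with 1000 to 3000 UMIs the interval of *Folr2* held 0 (−0.27 to 0.05).

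Related genes of the same pathways mostly showed smaller differences. Of the 16 other scavenger receptors listed, 10 reached 20 CPM in a library, and *Colec12*, a scavenger receptor of the collectin family, was the 1 with a difference of at least 1.5-fold, at 89.7 CPM against 38.7 CPM in the YFP+ library. The mannose receptor gene *Mrc1* was at 996 and 894 CPM, *Cd36* at 556 and 632 CPM, and *Cd14* at 482 and 598 CPM. Among 18 genes of apoptotic cell uptake, the bridging molecule *Gas6* was at 565 and 416 CPM (log2 ratio −0.44) and its receptor *Mertk* at 69.9 and 66.2 CPM.

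Partners of the members were mostly scarce. Of 9 endothelin pathway genes, 2 reached 20 CPM, the G-protein genes *Gnaq* with 82.3 and 96.5 CPM and *Gna11* with 31.0 and 28.3 CPM. The endothelin genes *Edn2* and *Edn3* had 0 UMIs, and *Edn1* and the A-type receptor *Ednra* had 0 UMIs in YFP− and 8 in YFP+ cells each. Among 11 folate genes, *Ggh*, which trims folate polyglutamates, was alone at 20 CPM or more, with 70.7 and 72.8 CPM.

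Of 10 genes of haem handling, 8 reached 20 CPM in a library. The haptoglobin gene *Hp* had 1 UMI in each library, and *Hpx* had 0 in YFP− and 1 in YFP+ cells. *Slc40a1* was at 25.2 and 13.8 CPM, a log2 ratio of −0.83 (−1.28 to −0.36). *Ftl1* and *Fth1*, the ferritin chains, stood at 10200 and 5915 CPM in YFP− and at 9991 and 5979 CPM in YFP+ cells, and haem oxygenase, *Hmox1*, at 183 and 170.4 CPM. Of the 11 near relatives of the members, 6 had 0 UMIs in both libraries, among them *Folr1* and the factor XIII B-subunit gene *F13b*. *Stab2* had 1 UMI in all.

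Of the 25 genes listed as companions of such resident macrophages, 17 had a mean of at least 50 CPM. All 17 had a lower value in YFP+ cells (46.6% of the genes tested had), with a median log2 ratio of −0.29, and 3 were at least 1.5-fold lower (5.78% of the genes tested were). The 6 MHC class II genes at that level all had a higher value in YFP+ cells (median 0.35), as did the 8 genes of the *Ccr2* list (median 0.38) and 53.4% of the genes tested.

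To compare cells at equal depth, each cell was thinned at random to 500 UMIs. *F13a1* was then seen in 40.9% (37.9 to 43.9) of YFP− and 38.9% (37.4 to 40.4) of YFP+ cells. Before thinning it was seen in 853 and 2796 cells. *Cd163* was seen in 39.4% (36.4 to 42.5) and 39.5% (38.0 to 41.0), and *Stab1* in 33.9% (31.0 to 36.8) and 24.6% (23.3 to 26.0). The share of *Stab1* thus differed between the libraries at equal depth beyond counting error, and that of *Cd163* did not.

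*Folr2* was seen in 14.7% (12.6 to 17.0) of YFP− and 11.7% (10.7 to 12.7) of YFP+ cells, and *Lyve1* in 10.3% (8.56 to 12.3) and 9.70% (8.80 to 10.6). *Ednrb* was seen in 42 of the 1045 and 94 of the 4053 cells, 4.02% (2.91 to 5.39) and 2.32% (1.88 to 2.83). *Timd4* was seen in 16 and 56 cells. Thinned to 1000 UMIs, which 895 YFP− and 2869 YFP+ cells reached, *Lyve1* was seen in 21.8% and 17.3%.

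A droplet filled with 500 UMIs of free RNA alone would show *F13a1* with a chance of 35.3% and 27.2% and *Lyve1* with 11.5% and 8.29%, in the YFP− and YFP+ library. For *Stab1* these values were 45.03% and 29.7%, for *Cd163* 50.7% and 42.9% and for *Folr2* 23.4% and 18.2%, all above the shares in cells. Those of *Ednrb*, 4.88% and 2.14%, *Timd4*, 2.12% and 1.197%, and *Lyve1* were above the shares in cells in the YFP− library alone. Each lay within the interval of the share there. A share over all cells at or below its free-RNA value is not read as expression here. For *Lyve1* in YFP− cells this concerns the share alone. From all UMIs its level was 314 CPM (292 to 337.5) in cells and 244 CPM (213 to 278) in free RNA, and it was 251 CPM in the random draw at 500 UMIs. The free-RNA value also takes UMIs as evenly spread over droplets. In the YFP+ library the free-RNA values of *Lyve1*, *Ednrb* and *Timd4* were below the shares in cells, and that of *Lyve1* alone of these lay outside the interval of the share. Cells with at least 3 UMIs on mural cell markers were read for comparison and numbered 3 and 18, with medians of 959 and 1988 UMIs. At 500 UMIs, 2 of the 18 held *Stab1* and 1 held *Cd163*, and 0 of 18 held each of the other members, which allows up to 18.5%.

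The UMIs of the members were spread more unevenly than random sampling gives. Other genes were not compared, so this is not read as particular to the members. At 500 UMIs the variance of the counts over their mean, which is 1 for random sampling, ranged from 1.06 for *Timd4* in YFP+ to 1.45 for *Cd163* in YFP− cells. *Lyve1* was held with 2 or more UMIs by 22 YFP− cells (2.11%, against 0.723% for a Poisson draw of the same mean) and by 70 YFP+ cells (1.73% against 0.646%).

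Cells with 1 member were compared with cells with another through the number of cells with both, divided by the number that the product of the shares gives. Of the 21 pairs, 16 had a quotient above 1 in both libraries. Among the 17 pairs with at least 5 cells expected in each library, 12 were above 1 in both, against 27.9% of 11290 pairs of a member with another gene. A quotient of at least 1.5 in both libraries was found for 2 of the 17, against 0.177% of those pairs. Neither pair kept 1.5 in both libraries under all alternatives. The 11290 pairs were not matched to the member pairs for the shares of cells, which bound a quotient. The members were also chosen with earlier results of these data known. These percentages therefore describe the set and do not test it.

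These 2 pairs joined *Folr2* with *Ednrb* and with *Lyve1*. *Folr2* and *Ednrb* shared 16 YFP− cells where 6.19 were expected, a quotient of 2.58 (1.48 to 4.18), and 22 YFP+ cells where 10.97 were expected, a quotient of 2.005 (1.26 to 3.03). *Lyve1* and *Folr2* shared 27 YFP− cells against 15.9 expected, 1.696 (1.12 to 2.45), and 79 YFP+ cells against 45.9 expected, 1.72 (1.37 to 2.14). *Folr2* thus shared more cells with each of these genes than the product gives, in both libraries at 500 UMIs. The quotient of *Folr2* and *Ednrb* was 1.397 in YFP− cells at 1000 UMIs and 1.204 in YFP+ cells without the 1% of cells with most UMIs. That of *Lyve1* and *Folr2* was 1.484 in YFP− cells at 1000 UMIs, 1.357 without thinning, and 1.304 in YFP+ cells at 300 UMIs.

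*Lyve1* and *Ednrb* shared 9 YFP− and 19 YFP+ cells, 2.07 (0.9499 to 3.92) and 2.08 (1.26 to 3.25) times the expected number, but fewer than 5 were expected in YFP− cells. *Timd4* and *Folr2* shared 5 and 13 cells, 2.12 (0.689 to 4.93) and 1.99 (1.06 to 3.40) times the expected number. *F13a1* and *Ednrb* shared 1.28 (0.806 to 1.93) and 1.34 (0.994 to 1.77) times the expected number, and *F13a1* and *Lyve1* 1.06 (0.787 to 1.41) and 1.31 (1.14 to 1.499) times.

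The quotients of the abundant scavenger receptors were mostly closer to 1. A quotient cannot exceed 1 divided by the larger share, which leaves less room above 1 for genes seen in many cells. Quotients of abundant and sparse genes are therefore not compared as a measure of linkage. *Stab1* and *Cd163* gave 1.11 (0.953 to 1.28) and 1.11 (1.01 to 1.21). *Lyve1* and *Stab1* gave 0.847 (0.578 to 1.195) in YFP− and 1.26 (1.05 to 1.499) in YFP+ cells, the interval of the first holding 1. *Cd163* and *Timd4* gave the lowest quotients of all pairs, 0.634 (0.173 to 1.62) and 0.632 (0.346 to 1.06), from 4 and 14 cells.

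**Figure D2:**
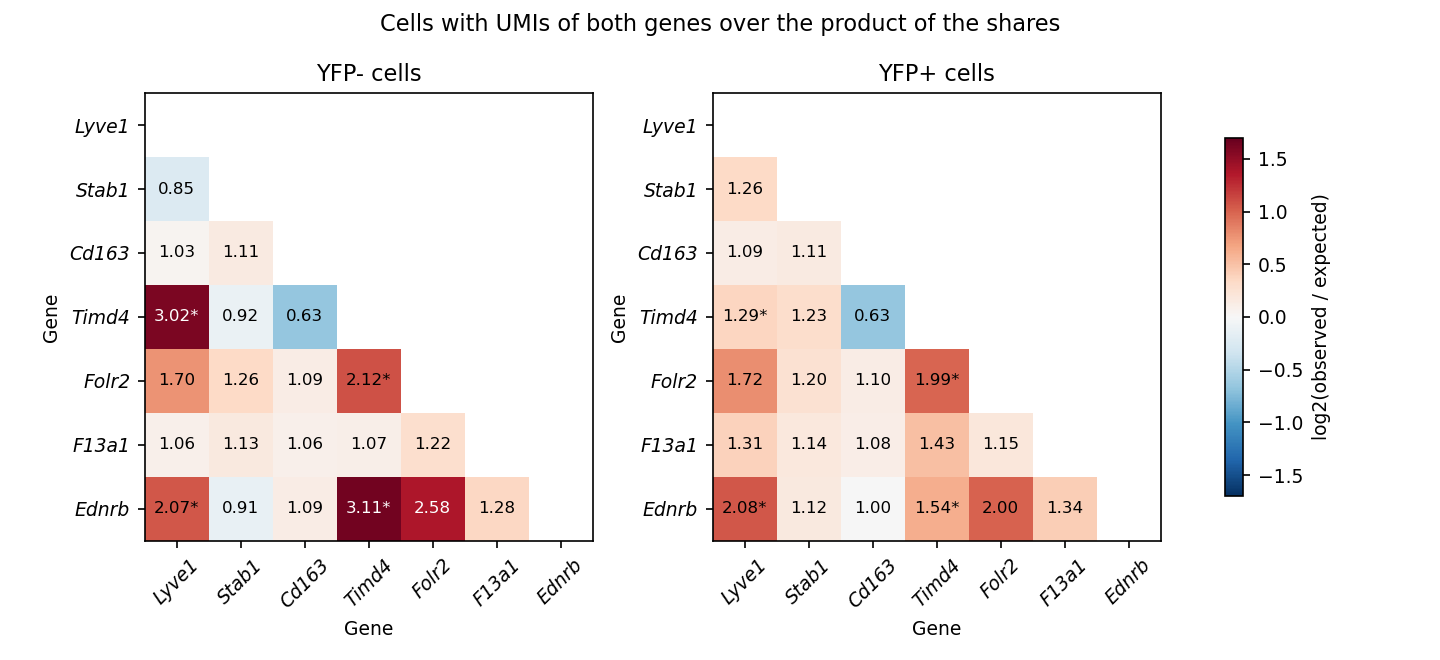
Number of cells with UMIs of both genes over the number given by the product of their shares, in YFP− (left) and YFP+ (right) cells thinned to 500 UMIs; colour shows the log2 of the quotient and * marks pairs with fewer than 5 cells expected in a library. *Folr2* with *Ednrb* (2.58 and 2.005) and *Lyve1* with *Folr2* (1.696 and 1.72) are above 1.5 in both libraries, and pairs of *Stab1*, *Cd163* and *F13a1* lie near 1.1.

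Cells with 4 or more members numbered 45 in the YFP− (4.31%, 3.16 to 5.72) and 99 in the YFP+ library (2.44%, 1.99 to 2.97). The product of the shares gave 24.1 and 54.0 such cells, so that the quotients were 1.87 and 1.83. The planned class was 3 or more members, and no alternatives were run for 4 or more. Cells with none of the 7 numbered 211 and 1032, 1.18 and 1.19 times the product. For 3 or more members the quotients were 1.17 and 1.25 at 500 UMIs and 0.999 and 1.08 at 1000 UMIs. The values at 1000 UMIs cover only the 895 YFP− and 2869 YFP+ cells that deep, so the set of cells differs as well as the depth.

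Cells were then clustered by their other genes, with the 7 members left out. The 5098 cells fell into 10 clusters. In cluster 7, the 10 leading genes were *Cd209g*, *Cd209f*, *Enpep*, *Fcna*, *Cd209d*, *Ccl8*, *Retnla*, *Cd209b*, *Tnfrsf25* and *Epb41l1*. The *Cd209* genes encode related C-type lectins whose reads may be split among copies. It held 51 YFP− and 90 YFP+ cells, 4.88% (3.66 to 6.37) and 2.22% (1.79 to 2.72) of their libraries, with medians of 1191 and 1425 UMIs.

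Cluster 7 had the highest level of 6 of the 7 members. *Ednrb* was at 574 CPM (420 to 765) in the cluster and 48.3 CPM in the other YFP− cells, and at 463 CPM (357 to 592) and 31.9 CPM in YFP+ cells, 11.9 and 14.5 times higher. The cluster held 28.9% and 23.3% of the *Ednrb* UMIs but 3.32% and 2.05% of all UMIs. In 8 clusters with at least 20 cells per library, the next highest *Ednrb* level was 83.6 CPM (33.6 to 172) in YFP− cells, in cluster 8.

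*Lyve1* was at 1010 CPM (802 to 1256) in cluster 7 and 290 CPM in the other YFP− cells, and at 934 CPM (780 to 1110) and 216 CPM in YFP+ cells. *Folr2* was at 960 CPM (758 to 1200) against 345 CPM, and at 977 CPM (819 to 1157) against 272 CPM. *F13a1* was at 2095 CPM (1790 to 2437) against 1063 CPM, and at 2085 CPM (1851 to 2340) against 996 CPM. For these genes the intervals of cluster 7 did not overlap those of the next cluster in either library.

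*Timd4* reached 175 CPM (95.5 to 293) in cluster 7 and 22.2 CPM elsewhere in YFP− cells, from 14 UMIs in the cluster. In YFP+ cells it reached 101 CPM (55.4 to 170) and 24.2 CPM, also from 14 UMIs. *Cd163* was 1.52 and 1.54 times higher in cluster 7, with 1609 CPM (1343 to 1912) and 1556 CPM (1355 to 1779). Its intervals overlapped those of cluster 3, which had 1457 CPM (1345 to 1577) and 1354 CPM (1270 to 1443).

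*Stab1* was the exception. It was highest in cluster 3, at 1251 CPM (1146 to 1361) in YFP− and 906 CPM (837 to 979) in YFP+ cells, and second in cluster 7, at 935 CPM (736 to 1173) and 753 CPM (615 to 912). In both libraries the intervals of these clusters overlapped. Cluster 3 held 273 and 538 cells with medians of 1314 and 1186 UMIs, and mitochondrial transcripts such as *mt-Co2* and the genes *Tslp* and *Mmp9* were among its leading genes.

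Among the 2442 other genes with 50 CPM in both libraries, 187 or 7.66% were at least 1.5-fold higher in cluster 7 in both. Of the 5 members at that level, *Lyve1*, *Cd163*, *Folr2* and *F13a1* were so, and *Stab1* was 1.22 and 1.36 times higher. The cells had been clustered on correlated genes, so these values describe the cluster and were not tested.

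**Figure D3:**
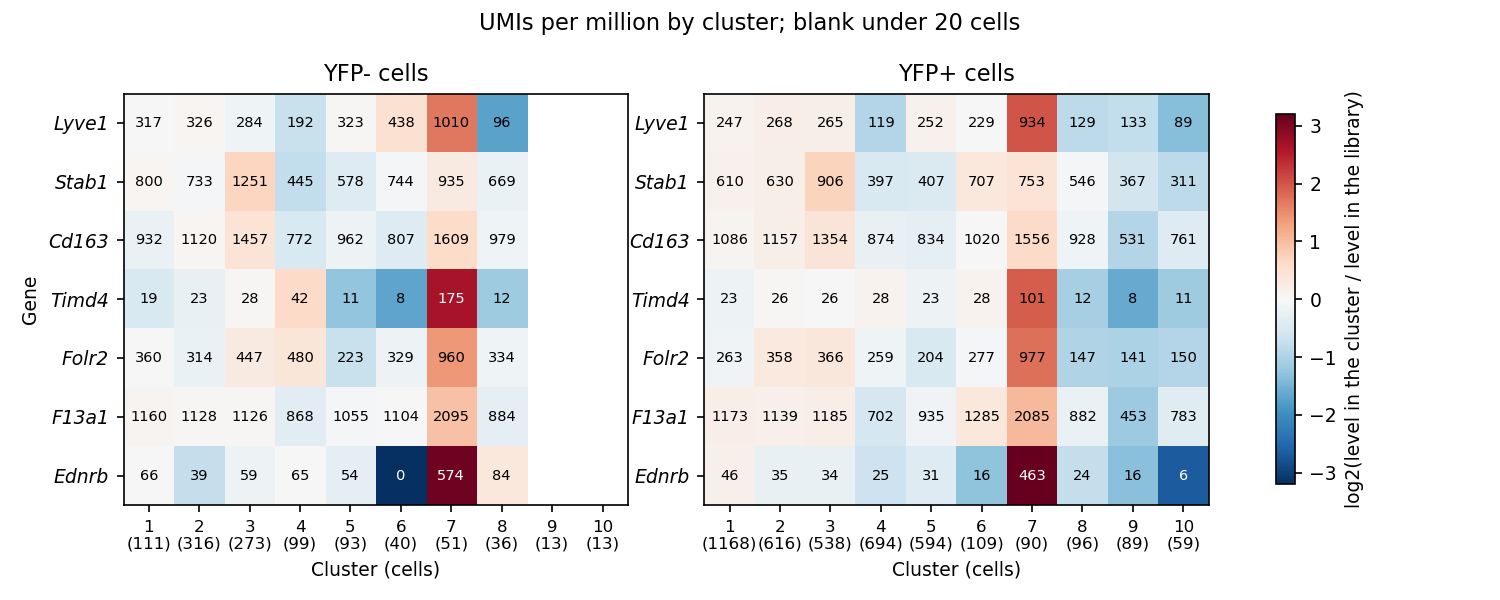
Level of each gene in CPM by cluster, with the number of cells below, in YFP− (left) and YFP+ (right) cells; colour shows the log2 of the level over that of the whole library, and clusters under 20 cells are blank. Cluster 7 stands out for *Ednrb* (574 and 463), *Lyve1* (1010 and 934), *Folr2* (960 and 977) and *Timd4* (175 and 101), and cluster 3 is highest for *Stab1* (1251 and 906).

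At 500 UMIs the shares of *Ednrb*, *Folr2*, *Lyve1* and *F13a1* showed the same division. *Ednrb* was seen in 17 of 51 YFP− cells of the cluster (33.3%, 20.8 to 47.9) and in 2.52% (1.63 to 3.69) of the other cells, and in 22.2% (14.1 to 32.2) and 1.87% (1.47 to 2.34) of YFP+ cells. *Folr2* was seen in 51.0% (36.6 to 65.2) against 12.9% (10.9 to 15.1) and in 34.4% (24.7 to 45.2) against 11.2% (10.2 to 12.2). *Lyve1* was seen in 35.3% (22.4 to 49.9) against 9.05% (7.34 to 11.01) and in 32.2% (22.8 to 42.9) against 9.18% (8.30 to 10.1). For these 3 genes the intervals in and outside the cluster did not overlap in either library at this equal depth. Free RNA was not measured by cluster.

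*F13a1* was seen in 64.7% (50.1 to 77.6) against 39.6% (36.6 to 42.8) of YFP− and in 70.0% (59.4 to 79.2) against 38.2% (36.6 to 39.7) of YFP+ cells. The shares of *Stab1* in YFP− cells, 31.4% (19.1 to 45.9) against 34.0% (31.1 to 37.0), and of *Cd163*, 45.1% (31.1 to 59.7) against 39.1% (36.1 to 42.2), did not separate the cluster. In YFP+ cells, *Stab1* was seen in 35.6% (25.7 to 46.3) against 24.4% (23.1 to 25.8) and *Cd163* in 52.2% (41.4 to 62.9) against 39.2% (37.7 to 40.8). *Timd4* was seen in 1 of the 51 YFP− cells of the cluster (1.96%, 0.0496 to 10.45) against 1.51% (0.847 to 2.48) of the others. Its share thus did not separate the cluster there. In YFP+ cells *Timd4* was seen in 5.56% (1.83 to 12.49), or 5 cells, against 1.29% (0.960 to 1.69).

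**Figure D4:**
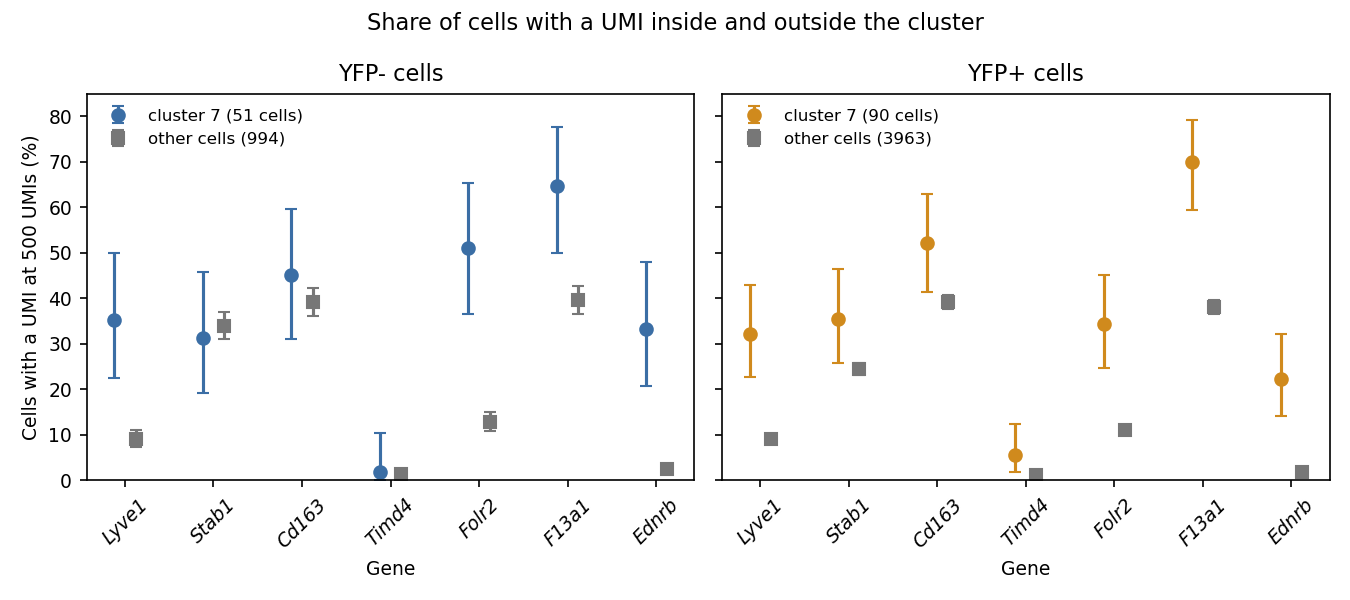
Share of cells with at least 1 UMI of each gene after thinning to 500 UMIs, in cluster 7 (coloured circles) and in all other cells (grey squares) of the YFP− (left) and YFP+ (right) library, with exact binomial 95% intervals. *Lyve1*, *Folr2*, *F13a1* and *Ednrb* are seen in more cells of the cluster in both libraries, and the intervals of *Stab1*, *Cd163* and *Timd4* overlap in YFP− cells.

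Of the cells of cluster 7, 14 YFP− (27.5%, 15.9 to 41.7) and 18 YFP+ cells (of 90, interval 12.3% to 29.8%) held 4 or more members, against 3.12% (2.13 to 4.398) and 2.04% (1.63 to 2.53) of the other cells. The cluster thus contained 31.1% and 18.2% of all such cells, and the others lay outside it. Without the cluster, 3 of the 21 pairs instead of 5 had a quotient of at least 1.5 in both libraries, and 15 instead of 16 were above 1 in both. The 3 were *Folr2* with *Ednrb*, *Timd4* with *Folr2* and *Timd4* with *Ednrb*. For these, 3.22, 1.93 and 0.377 YFP− cells were expected, so none had the 5 expected cells asked for above. The comparison without the cluster, like all others that leave it out, was chosen after the data had been seen.

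Outside cluster 7, *Folr2* and *Ednrb* shared 1.55 times (0.505 to 3.61) the expected number of YFP− and 2.06 times (1.201 to 3.29) that of YFP+ cells, and *Lyve1* and *Folr2* 1.47 (0.857 to 2.34) and 1.68 times (1.30 to 2.12). Within it, the quotient of *Lyve1* and *Folr2* was 1.09 (0.546 to 1.84) and 1.10 (0.564 to 1.88). The overlap of these genes in YFP+ cells was therefore also present outside the cluster.

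The other genes of cluster 7 were described by the same lists. Of the 25 listed companions, 21 reached 20 CPM, 16 of these were at least 1.5-fold higher in the cluster in both libraries and 0 were lower. Among the genes with 50 CPM in both libraries, 7.66% were higher. The companions had not been left out of the clustering, and several were leading genes of the cluster. Their list was chosen with earlier results known, so the count describes the cluster and is no independent support. The median log2 ratio of the 21 companions was 1.78 in YFP− and 1.98 in YFP+ cells. *Fcna*, a ficolin, was at 337 CPM in the cluster and 10.7 CPM elsewhere in YFP− cells and at 413 and 10.6 CPM in YFP+ cells. The chemokine gene *Ccl8* was at 324 and 19.2 CPM and at 362 and 8.47 CPM.

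*Clec10a*, a lectin, stood at 1110 against 214 CPM in YFP− and 832 against 137 CPM in YFP+ cells. The transcription factor gene *Maf* stood at 2657 against 1409 CPM and at 2440 against 1272 CPM. *Retnla*, which encodes a secreted resistin-like protein, stood at 9953 against 298 CPM and at 14160 against 768 CPM. The 8 genes that the study lists for its own cluster 4 were all at least 1.5-fold higher in both libraries, but that list was drawn from these same libraries and shares *Clec10a*, *Ninj1*, *Wfdc17*, *Ccl24* and *Fcgrt* with the companions.

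Genes of antigen presentation and of the response to dissociation had lower levels in cluster 7. Of the 2442 genes with 50 CPM in both libraries, 244 or 9.99% were at least 1.5-fold lower in both. Of the 7 MHC class II genes, 6 were at least 1.5-fold lower in both libraries, with *H2-Ab1* at 1671 against 6737 CPM in the YFP− library and at 5089 against 8662 CPM in the YFP+ library. Of 14 immediate early and heat shock genes, 12 were lower, with *Fos* at 536 against 1701 CPM and at 550 against 1797 CPM. Of the 8 genes on the *Ccr2* list, 4 were higher (*S100a4*, *S100a10*, *Crip1* and *Ahnak*) and 2 lower (*Ccr2* and *Lsp1*). *Cx3cr1*, the fractalkine receptor gene, was at 37.4 against 281 CPM and at 101 against 342 CPM.

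Of the markers of other cell types at 20 CPM in a library, *Cd209a*, which is also on the list of companions, was at least 1.5-fold higher in the cluster in both libraries. Scarcer markers of these types are not covered by this statement. The 4 Schwann cell markers at 20 CPM summed to 312 against 727 CPM in YFP− and 391 against 660 CPM in YFP+ cells. *Csf1r* was higher, at 1584 against 972 CPM and 1245 against 865 CPM. *Fcgr1*, the gene of the sort marker CD64, was at 49.9 against 110 CPM and at 50.7 against 112 CPM.

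The difference between the libraries was also read within and outside cluster 7. Within it the log2 ratio was −0.11 (−0.52 to 0.31) for *Lyve1*, 0.03 (−0.39 to 0.45) for *Folr2*, −0.01 (−0.29 to 0.28) for *F13a1* and −0.31 (−0.88 to 0.27) for *Ednrb*. All 7 intervals held 0, with the 51 and 90 cells there. Outside it the ratio was −0.43 (−0.56 to −0.29) for *Lyve1*, −0.47 (−0.55 to −0.39) for *Stab1*, −0.34 (−0.46 to −0.22) for *Folr2* and −0.58 (−0.91 to −0.25) for *Ednrb*.

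When the YFP+ clusters were weighted as in YFP− cells, over the 8 clusters with at least 20 cells in each library, the log2 ratio of *Lyve1* was −0.30, that of *Stab1* −0.32, that of *Folr2* −0.19 and that of *Ednrb* −0.51. *Cd163* then stood at 0.02 and *F13a1* at −0.01. *Stab1* was lower in YFP+ cells in 8 of the 8 clusters, *Lyve1* and *Ednrb* in 7, *Folr2* in 6, and *Cd163*, *F13a1* and *Timd4* in 4.

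Genes beside each member were read by dividing the cells of each library into those with and without a UMI of the member at 500 UMIs. The level of every gene with 50 CPM in both libraries was then compared from all UMIs of the cells. A gene was counted when it was at least 1.5-fold higher, or lower, in both libraries.

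Among the 6 members other than *Timd4*, *Ednrb* had the most such genes and also the fewest cells. Of 2447 genes, 57 (2.33%) were higher and 78 (3.19%) lower, from 42 and 94 cells. The members *Lyve1* and *Folr2* were among the higher genes. *Lyve1* had a log2 ratio of 1.31 (0.94 to 1.66) in YFP− and 1.26 (0.90 to 1.61) in YFP+ cells, and *Folr2* 0.98 (0.60 to 1.34) and 1.36 (1.04 to 1.66).

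The highest genes beside *Ednrb* were *Retnla*, at 3312 against 505 CPM in YFP− and 4744 against 969 CPM in YFP+ cells, *Ly6e*, at 521 against 161 CPM and 426 against 136 CPM, and the fibroblast growth factor receptor gene *Fgfr1*, at 153 against 47.0 CPM and 167 against 54.9 CPM. The lowest were *Ccl4*, *Ccr2* and *Cd9*. The chemokine receptor gene *Ccr2* was at 20.4 against 128 CPM and at 83.6 against 296 CPM. Of 16 companions, 9 were higher beside *Ednrb* and 0 lower, with medians of 0.67 and 0.94, and the 6 MHC class II genes had medians of −0.73 and −0.49. Of the 42 YFP− and 94 YFP+ cells with *Ednrb*, 17 and 20 belonged to cluster 7, so these ratios are not separate from those of the cluster. The part of the cluster in them was not tested.

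Beside *Lyve1*, 11 of 2446 genes (0.45%) were higher and 9 (0.368%) lower. The highest were the chemokine gene *Ccl24*, at 602 against 248 CPM in YFP− and 335.5 against 161 CPM in YFP+ cells, *Fgfr1*, at 94.5 against 46.2 CPM and 118.5 against 50.5 CPM, and *Fxyd2*, which encodes a regulator of the sodium pump, at 252 against 120 CPM and 195 against 116 CPM. The lowest were *Sparc*, *Stmn1*, a tubulin-binding protein of dividing cells, and *Ccr2*. *Ccr2* was at 39.4 against 134 CPM and 135 against 308 CPM. Of the other members, 4 had the level to be counted, and *Folr2* was higher, with log2 ratios of 0.64 (0.37 to 0.91) and 0.90 (0.73 to 1.08).

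Beside *Folr2*, 5 genes (0.204%) were higher and 11 (0.45%) lower. The highest were *Wfdc17*, at 886 against 496 CPM in YFP− and 764 against 438 CPM in YFP+ cells, *Retnla*, at 1299 against 513 CPM and 1657 against 960 CPM, and *Fxyd2*. *Lyve1* was the member among them, at 0.61 (0.33 to 0.87) and 0.78 (0.59 to 0.96). Among the lowest were *Sparc* and the chemokine gene *Ccl4*. *Ccl4* was at 33.9 against 186 CPM and 112 against 287 CPM.

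Beside *F13a1*, 2 genes (0.0818%) were higher, *Mmp9*, a gelatinase, and *Tslp*, a cytokine, and 8 (0.327%) lower. *Mmp9* was at 207 against 122 CPM and 133 against 73.7 CPM, and *Tslp* at 156 against 77.8 CPM and 85.3 against 50.1 CPM. *Pla2g2d*, a secreted phospholipase, came next, with 370 against 265 CPM and 230 against 165 CPM. Among the lowest were *Sparc* and *Ccl4*.

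Beside *Stab1*, 3 genes (0.123%) were higher and 0 (0.0%) lower. The 3 were *Dennd5a*, *Tslp* and *Mmp9*, with *Mmp9* at 221 against 128 CPM and 131 against 85.8 CPM. Cells with *Stab1* held fewer UMIs, with medians of 1750 against 2507 in YFP− and 1297 against 1560 in YFP+ cells. The part of depth in these ratios was not tested. *Retnla* had the lowest ratio beside *Stab1*, −0.51 (−0.69 to −0.33) and −0.76 (−0.85 to −0.66), followed by *S100a6* and *Lpl*. *Retnla* was thus lower beside *Stab1* and higher beside *Folr2* and *Ednrb* in both libraries.

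Beside *Cd163*, 0 genes (0.0%) were higher and 5 (0.204%) lower. The highest ratios were those of the histone gene *Hist2h2aa1*, *Cd38* and the copper-binding *Cp*, and *Cp* had 157 against 106 CPM and 114 against 88.7 CPM. Among the lowest were *Sparc* and *Ccl4*. For *Timd4*, with 16 and 56 cells, counts of genes were not read. Its highest ratios were those of *Batf3*, *Smim7* and *Arid4a*, with intervals that held 0 in YFP− cells, and *Imp3* and *Gfer*, among its lowest, had 0 UMIs in its 16 YFP− cells.

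Schwann cell RNA moved with some of these divisions. The 8 Schwann cell markers summed to 404 CPM in YFP− cells with *F13a1* and to 963 CPM in those without, and to 416 and 856 CPM in YFP+ cells, and all 8 were lower in both libraries. Beside *Cd163* they summed to 537 against 868 CPM and 420 against 854 CPM, and beside *Folr2* to 321 against 815 CPM and 442 against 723 CPM. Beside *Stab1* they summed to 870 against 700 CPM in YFP− and 377 against 780 CPM in YFP+ cells, with 2 of the 8 lower in both. Cells with at least 3 UMIs on markers of other types were then left out, which was decided after the data had been seen. *Sparc* then had log2 ratios of 0.84 and 0.48 beside *F13a1*, so it was not lower there without such cells. Its ratios were −0.32 and 0.14 beside *Folr2*, −0.67 and 0.30 beside *Cd163*, and −0.0035 and −1.10 beside *Lyve1*, so its lower level was not seen in both libraries there. *Ccl4* stayed lower beside *F13a1*, at −1.44 and −1.56, and *Retnla* stayed higher beside *Ednrb*, at 2.93 and 2.36.

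**Figure D5:**
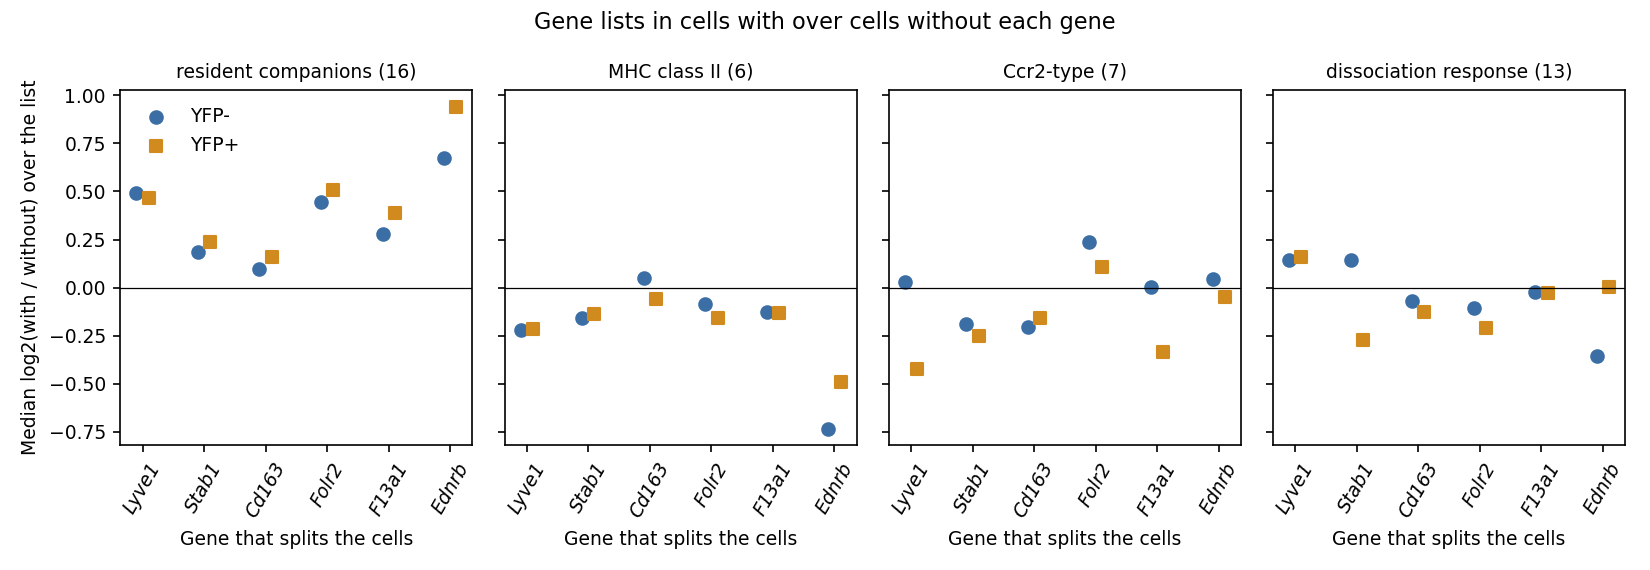
Median log2 ratio of the genes of 4 lists in cells with over cells without each gene, in YFP− (blue circles) and YFP+ cells (orange squares), with the number of genes of the list at 50 CPM in both libraries in brackets; *Timd4* is left out for its 16 and 56 cells. The companions lie above 0 beside all 6 genes and highest beside *Ednrb* (0.67 and 0.94), and the MHC class II genes lie lowest beside *Ednrb* (−0.73 and −0.49).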

How the data were processed

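Single-cell RNA-seq of the YFP− and YFP+ sort was analysed, with groups taken from the cell type given in the labels. The deposited files hold raw UMI counts per gene and barcode, not normalized, which the authors made from 10x v2 libraries. The submitters' processing notes name Cell Ranger 3.0.2, Seurat 2.2.0 and GRCm38. The gene annotation release is not given in the sources used here. No barcode had been removed, so cells were called here (500 UMIs, 200 genes). No doublet caller was run.

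Levels are CPM of summed counts with exact Poisson intervals. Ratios used a pseudocount of 1 CPM and intervals from the exact binomial distribution (shares: Clopper-Pearson). The floor was 3 UMIs, which is 1.24 CPM for YFP− and 0.445 CPM for YFP+ cells. Clusters used 2000 variable genes, 20 components, 20 neighbours, a Leiden resolution of 0.8 and seed 0, without the members. Tools were Python 3.11.15, numpy 2.4.6, scipy 1.17.1, pandas 2.3.3, scanpy 1.11.5, anndata 0.12.19, scikit-learn 1.9.0, igraph 0.11.9 and matplotlib 3.10.9, and the statistics were tested on simulated data. Positions are from GENCODE M21 for GRCm38.

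The genes named are the 7 members, the 3 with the highest and the 3 with the lowest ratio beside each, genes of fixed lists at 20 CPM or named as scarce, and leading genes of clusters. Some genes that this rule names are not reported here. Members and lists were chosen with earlier results of these data known. The alternatives tried were other filters, weights, thinning depths, scalings and cluster settings.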

Additional observations from a re-analysis of the deposited data

How the results depend on the processing

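No paired analysis was possible because each condition is 1 library. The direction of the member differences between the libraries was kept under all alternatives tried for *Lyve1*, *Stab1*, *Folr2*, *F13a1* and *Ednrb*, and turned for *Cd163* (0.020 with YFP+ clusters weighted as in YFP− cells) and for *Timd4* (0.022 with 10% of free RNA removed and 0.12 without cluster 7). The weighting, the removal of cluster 7 and another draw of the thinning were chosen after the data had been seen. In cells with 1000 to 3000 UMIs the log2 ratios were −0.29 for *Lyve1*, −0.58 for *Stab1*, −0.21 for *Cd163*, −0.11 for *Folr2* and −0.21 for the median of the members. With equal weight for every cell they were −0.63 for *Stab1*, −0.40 for *Lyve1* and −0.18 for *Cd163*. With cells thinned to 500 UMIs they were −0.085 for *Lyve1*, −0.66 for *Stab1* and −0.18 for the median. With YFP+ clusters weighted as in YFP− cells they were −0.30 for *Lyve1*, −0.32 for *Stab1*, −0.19 for *Folr2* and −0.0091 for *F13a1*. Pairs with a co-detection quotient of at least 1.5 in both libraries numbered 2 at 1000 UMIs and 3 without the cells of cluster 7, and between 4 and 6 under the other 6 alternatives, another draw of the thinning included. Cells with 0 members were 1.85 times the product in YFP− and 1.68 times in YFP+ cells at 1000 UMIs, 9.14 and 3.09 times without thinning, and 1.05 times in YFP+ cells at 300 UMIs. Cells with 3 or more members were 0.999 and 1.08 times at 1000 UMIs and 0.934 and 0.984 times without thinning, so of the 4 values the one for YFP+ cells at 1000 UMIs was above 1. At 300 UMIs they were 1.21 and 1.28 times. Among genes with at least 200 CPM, 3 were higher beside *Lyve1*, 0 beside *Stab1*, 5 beside *Timd4*, 3 beside *Folr2*, 0 beside *F13a1* and 12 beside *Ednrb*, since fewer genes were counted. With detection without thinning, 6 were higher beside *Lyve1*, 18 beside *Timd4*, 12 beside *F13a1*, 2 of them members, and 26 beside *Ednrb*. Without cells holding markers of other types, 1 was higher beside *Cd163*. The highest cluster level of *Stab1* was 834.5 CPM at a resolution of 0.4, 1268 CPM at 1.2, 936 CPM with 10 components and 1161 CPM without the companions. With 10 components *Lyve1* was at 762 CPM, *Cd163* at 1403 CPM, *F13a1* at 1850 CPM and *Ednrb* at 392 CPM. The causes of these changes were not tested. Values at 1000 UMIs came from the 895 YFP− and 2869 YFP+ cells with at least that many UMIs. Depth limits *Timd4* most, with 16 and 56 cells at 500 UMIs.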
